A study of Mus musculus with 60 samples.

Results

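The interferon response genes described here are 44 genes that interferons are known to induce in many cell types, out of 48440 genes listed in each of 3 count tables. They were taken by gene symbol and not by a cut on measured values, and all 44 symbols were found in every table. The list was nevertheless chosen with earlier results of these data known. The tables come from bulk RNA sequencing of mouse cancer-associated fibroblasts (CAFs), the activated fibroblasts of tumours, which the labels call tCAFs without explaining the prefix. The partner cells were mouse lung cancer cells of the lines 393P and 344SQ, of which 344SQ is known to metastasise more. In multicellular aggregates, where the cells touch, CAFs were alone, with 393P cells or with 344SQ cells (3 replicates each), or with 344SQ cells in which Zeb1 was targeted by shRNA (shZEB1) or which held the control construct (shCTL), 3 replicates each. In a Boyden chamber, whose porous membrane keeps cell populations apart, CAFs were alone, with 393P cells or with 344SQ cells, with 5 biological replicates each and 3 technical libraries per replicate, which were summed. In all groups the CAFs were enriched by FACS and then lysed. The titles of the aggregated CAFs alone carry the tag GFP, and the sources used here do not state how it was introduced, which markers the sort used, or the strain, genotype and age of the source animals. No label ties a replicate to its own fibroblast isolate, and p-values therefore measure only the spread between these samples, which may be technical.

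Interferons are secreted proteins that cells make after sensing foreign or misplaced nucleic acid. Type I and type III interferons act through receptors and the kinases Jak1 and Tyk2 to form a complex that holds Stat2 and Irf9 and binds the interferon-stimulated response element (ISRE) in promoters, while interferon gamma acts through Jak1 and Jak2 on genes with a gamma-activated site (GAS). The induced genes sense, degrade or block viral RNA, tag proteins, present antigen and attract lymphocytes, and some of them keep a low level in fibroblasts without added interferon.

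The aggregate libraries held 757717 to 1258751 counts, the shRNA libraries 739530 to 2144803 and the Boyden sums 4182944 to 8542262. Boyden sums with 344SQ held 4182944 to 5857925 counts, fewer than every CAFs-alone sum (6734110 to 8542262), and those with 393P held 6227570 to 7126107. Replicates varied least in the Boyden table (biological coefficient of variation 8.58%), more in the aggregates (16.2%) and most in the shRNA table (61.7%). All 11 fibroblast markers were detected in every Boyden CAFs-alone sum, with a summed level of 8759 to 9216 CPM (counts scaled to a common library total), while 19 carcinoma and epithelial markers summed to 26.3 to 40.3 CPM and 11 macrophage and myeloid markers to at most 22.2 CPM there. Across the membrane from 344SQ and 393P the fibroblast markers summed to 6801 to 7532 and 7482 to 7845 CPM, below every CAFs-alone sum. The carcinoma markers summed to 30.6 to 52.8 and 18.6 to 92.2 CPM. Endothelial markers summed to 6.84 to 10.8 and 7.76 to 11.0 CPM, against 13.4 to 18.0 in CAFs alone. The part of depth or of these cell types in the membrane comparisons was not tested. In the shRNA table the carcinoma markers summed to 122 to 1779 CPM. Such sums cannot tell more tumour cells from more marker RNA per tumour cell.

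Of the 44 genes, 32 passed the filter on low counts in the Boyden table, 15 in the aggregate table and 14 among the shRNA libraries, and 14 passed in all 3. The other 12 passed in none: Oas1a, Oas2, Mx1, Mx2, Rsad2, Isg15, Usp18, Gbp3, Psmb8, Psmb9, Cxcl10 and Ccl5. These 12 hold the myxovirus resistance GTPases, viperin (Rsad2), Isg15 with its protease Usp18, and both chemokines, and none of them exceeded 10.9 CPM in any library or sum. Levels of genes are given as CPM after TMM scaling of the library sizes. Per kilobase of exon, the order of levels in Boyden CAFs alone was led by Ifitm3 and Ifitm2, membrane proteins that block virus entry, with medians of 1064 and 353 CPM per kilobase (range 977 to 1406 and 322 to 366). Ifi27 followed at 37.8 (31.4 to 62.5) and the secreted glycoprotein gene Lgals3bp at 23.2 (17.2 to 46.4), whose ranges overlapped. The dNTP hydrolase Samhd1 had a median of 20.6 CPM per kilobase, within the range of Lgals3bp. In aggregated CAFs alone Ifitm3, Ifitm2 and Lgals3bp led, at 316, 258 and 34.4 CPM per kilobase, and Ifi27 was at 7.21. Bulk libraries cannot tell fewer cells of a type from less RNA per cell.

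One Boyden sample, CAFs alone replicate 4, stood apart for these genes, and it bears on every comparison with CAFs alone in that chamber. It had the highest level among the 15 sums for 26 of the 32 genes tested, whereas it was the highest for 5.30% of all genes tested. The 44 genes summed to 19111 counts there, against 11866 to 13684 in the other CAFs-alone sums. Oasl2, a member of the oligoadenylate synthetase family, was at 50.8 CPM in that sample and at 3.73, 4.66, 4.25 and 7.36 in replicates 1, 2, 3 and 5. Ifi44, an interferon-induced antiviral gene, was at 39.6 CPM there and at 5.96, 5.21, 4.73 and 4.74 in the same others. For both genes the other 4 replicates lay together and replicate 4 lay several times above them.

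Xaf1, which encodes an antagonist of the apoptosis inhibitor XIAP, was at 55.5 CPM in replicate 4 and at 13.7, 16.2, 12.8 and 18.1 in replicates 1, 2, 3 and 5. Irf9, the DNA-binding subunit of the interferon-induced complex, was at 50.5 CPM against 21.2, 20.4, 19.8 and 20.7. Irf7, the factor that amplifies type I interferon production, was at 12.5 CPM against 3.13, 3.15, 4.02 and 3.12. Stat2, the partner of Irf9, was at 62.4 CPM against 30.1 to 40.8, so 3 of the 4 transcription factor genes were highest in that sample and Irf1 was not. Isg15, the ubiquitin-like modifier, had no count in the other 4 CAFs-alone sums and 2.50 CPM (20 counts) in replicate 4, and Oas2 had 9.01 CPM there against 0.745 to 0.873.

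Across the whole transcriptome, 13 of 14040 genes reached at least 5 CPM in replicate 4 and at least 2 times the level of every other CAFs-alone sum. Of these, 9 belonged to the 44 (Irf9, Irf7, Ifi44, Oasl2, Rtp4, Ifit1, Xaf1, Bst2 and Igtp), 2 were in the wider interferon lists (Phf11d and Irgm2), and 2 were Apol9a and Apol9b. The ratio to the next highest CAFs-alone sum ran from 2.03 for Irgm2 to 6.93 for Rtp4, a chaperone of membrane receptors. None of the other 14 Boyden sums had one of the 44 genes above its group in this way. The 6 of the 32 genes that were not the highest in that sample were Irf1, Ifit2, Samhd1, Ifitm2, Gbp2 and Parp14. Irf9 overlaps Rnf31, Irf7 overlaps Phrf1 and Igtp overlaps Irgm2 in the annotation, so some of their reads may belong to the neighbour. Irf1 was at 7.01 CPM in replicate 4, the lowest of the 5 CAFs-alone sums, and Ifit2 was at 25.8 CPM against 29.7 to 36.6.

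**Figure D1:**
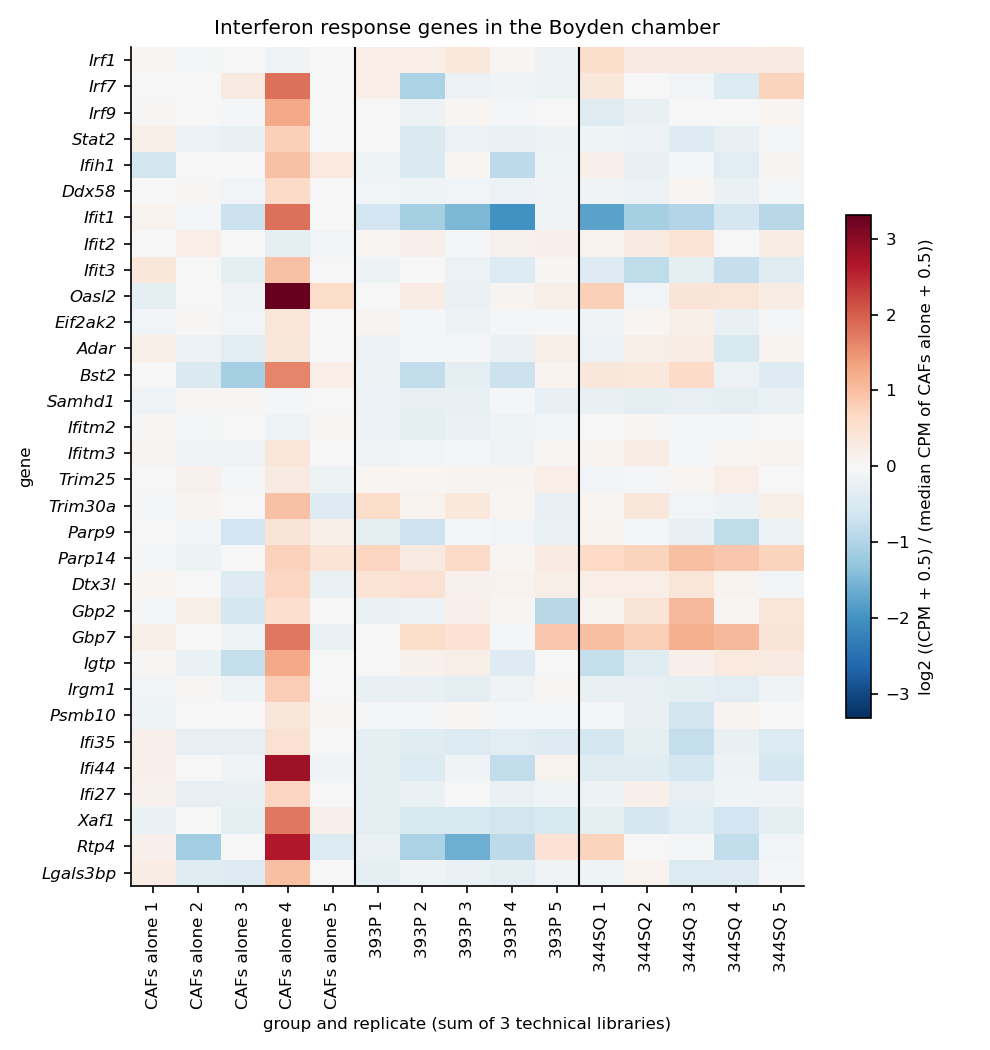
Level of the 32 genes that passed the count filter (rows) in the 15 Boyden sums (columns), as log2 of the ratio of CPM + 0.5 to the median of CAFs alone + 0.5. The column of CAFs alone replicate 4 is red for most genes, and it holds the highest of the 15 values for 26 of the 32.

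The 3 technical libraries of replicate 4 are the parts of that sum and not separate samples. For 19 of the 44 genes, and 15 of the 32 tested, all 3 lay above all 12 technical libraries of the other CAFs-alone replicates, as did 0.370% of all genes tested. Oasl2 was at 40.7 to 58.2 CPM in the libraries of replicate 4 and at 1.86 to 8.09 in the others, and Ifi44 was at 31.7 to 45.4 against 3.21 to 7.47. The sample had 7808866 counts, within the range of its group (6734110 to 8542262), a carcinoma marker sum of 31.9 CPM within its group's range (26.3 to 40.3), ribosomal and mitochondrial counts of 11.5% (11.2% to 13.8% in the group), and a macrophage and myeloid marker sum of 22.2 CPM, the highest of the group (19.3 in the lowest). The part of any of these in the difference was not tested.

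**Figure D2:**
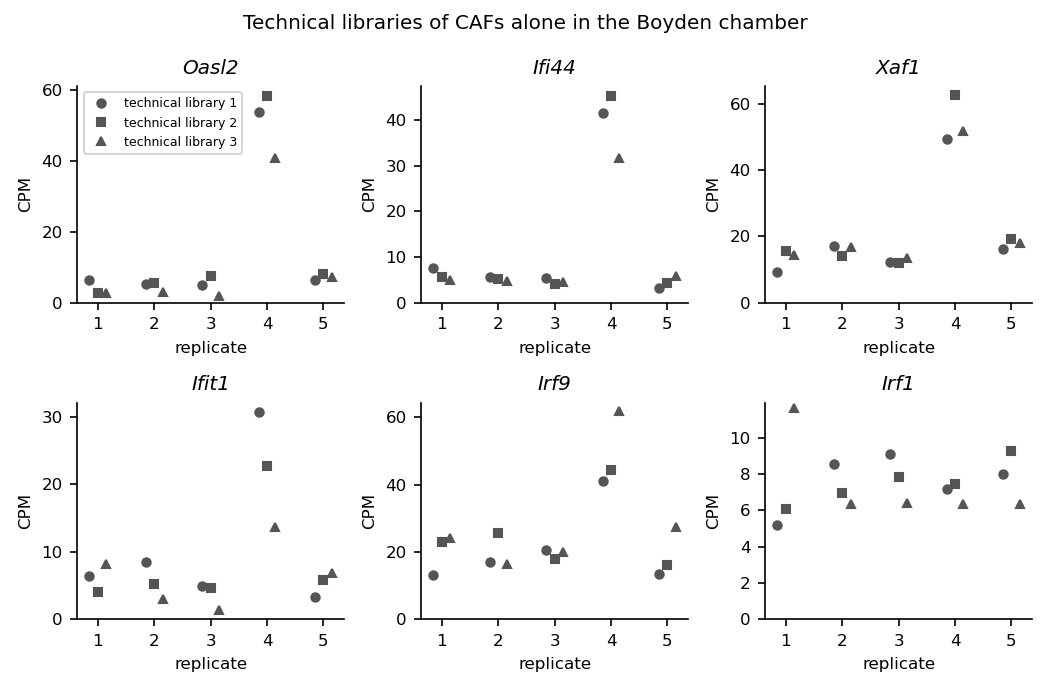
CPM of 6 genes in each technical library (circle, square and triangle for libraries 1, 2 and 3) of the 5 Boyden CAFs-alone replicates. For Oasl2, Ifi44, Xaf1, Ifit1 and Irf9 all 3 libraries of replicate 4 lie above every other library, while Irf1 shows no such gap.

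Promoters of the 44 genes were searched for the interferon motifs. Whether these motifs had a part in the levels of replicate 4 was not tested. RefSeq promoters on GRCm38.p6, from 250 bases before to 50 after the start, were found for 35 of the 44 genes. The ISRE core GAAANNGAAA, searched on both strands, lay in a promoter of 19 of these 35 genes (54.3%), against 3.99% of the 27025 genes with a promoter. The core of the gamma-activated site, TTCNNNGAA, which reads the same on both strands, lay in 12 (34.3%), against 9.55% of all genes. Of the 13 genes that stood apart in replicate 4, 12 had a promoter entry and 6 of them an ISRE core (Ifit1, Bst2, Igtp, Irgm2, Apol9a and Apol9b). A GAS core lay in 3 of the 12 (Bst2, Irgm2 and Igtp). Neither core was in the windows of Irf7, Irf9, Ifi44, Oasl2, Xaf1 and Phf11d. The 150 bases before the start are printed for Ifit1 (chr19:34640739-34640888, plus strand), the tetherin gene Bst2 (chr8:71537473-71537622, minus strand), the immunity-related GTPase gene Igtp (chr11:58199406-58199555, plus strand) and, with no match, Oasl2 (chr5:114896784-114896933, plus strand), each 5′ to 3′ along its gene, with ISRE cores in capitals. In Bst2 a pair of cores overlap.
Ifit1: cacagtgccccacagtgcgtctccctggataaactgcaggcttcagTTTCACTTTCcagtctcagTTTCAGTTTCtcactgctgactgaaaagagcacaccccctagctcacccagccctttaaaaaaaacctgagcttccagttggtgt
Bst2: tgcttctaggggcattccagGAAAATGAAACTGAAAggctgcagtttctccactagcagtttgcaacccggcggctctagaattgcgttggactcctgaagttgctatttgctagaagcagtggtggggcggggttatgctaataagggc
Igtp: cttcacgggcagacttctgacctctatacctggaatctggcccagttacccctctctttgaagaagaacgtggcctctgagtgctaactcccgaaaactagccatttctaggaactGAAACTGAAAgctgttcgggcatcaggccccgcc
Oasl2: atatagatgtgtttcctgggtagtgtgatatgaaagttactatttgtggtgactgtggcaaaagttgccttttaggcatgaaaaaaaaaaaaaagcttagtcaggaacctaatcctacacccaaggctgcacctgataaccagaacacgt

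The first membrane comparison asked what 393P cells changed in CAFs they did not touch. With all replicates, 6 of the 32 genes tested were called lower and 0 higher at an adjusted p under 0.05, where 7.96% and 7.68% of all genes were called lower and higher. The median log2 change of the 32 was -0.29, against 0.00065 for all genes. Without CAFs alone replicate 4, 2 genes were called lower and 1 higher (5.98% and 6.07% of all genes), and the median of the 31 genes then tested was -0.09. Of the 6 lower calls, Ifit1, Ifi44, Ifi35 and Samhd1 were not called without it. The change of Samhd1 was the same size there, and its call and that of Ifi35 were each lost in 8 of the 10 fits that left out 1 sum.

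Ifit1 (ENSMUSG00000034459.8, chromosome 19, 34640871 to 34650009), whose protein binds viral RNA that lacks host cap marks, was at 3.49, 2.40, 1.74, 1.06 and 5.22 CPM with 393P and at 6.26, 5.62, 3.31, 21.5 and 5.74 in CAFs alone, replicates 1 to 5 in order. The groups overlapped, and all 5 co-culture sums lay below all but the lowest of the CAFs alone. Its log2 change was -1.59 ± 0.41 (SE, adjusted p = 0.00948), and -0.87 ± 0.30 without replicate 4 (adjusted p = 0.0626). Ifi44 (ENSMUSG00000028037.13, chromosome 3, 151730922 to 151749960) was at 4.05, 3.68, 4.74, 2.74 and 5.65 CPM with 393P, a log2 change of -1.53 ± 0.48 (adjusted p = 0.0306) that came to -0.29 ± 0.19 without replicate 4 (adjusted p = 0.369). Without replicate 4, the Ifi44 values of both groups overlapped.

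Xaf1 (ENSMUSG00000040483.15, chromosome 11, 72301629 to 72313733) was at 12.8, 11.0, 11.2, 10.3 and 11.0 CPM with 393P. Its log2 change was -1.05 ± 0.29 (adjusted p = 0.0143). It was called lower in all 10 fits that left out 1 sum of these groups and was at -0.42 ± 0.12 (adjusted p = 0.0280) without replicate 4. Samhd1 (ENSMUSG00000027639.16, chromosome 2, 157097533 to 157135265) was at 166, 155, 159, 185 and 156 CPM with 393P and at 174, 194, 193, 184 and 188 in CAFs alone. Only 393P replicate 4 reached the CAFs-alone range. The log2 change of Samhd1 was -0.18 ± 0.06 (adjusted p = 0.0303), and the call held in 2 of the 10 fits with 1 sum left out, where the adjusted p ran from 0.00856 to 0.0807.

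The other lower calls were small or depended on few sums. Ifi35, which encodes an interferon-induced partner of Nmi, changed by -0.47 ± 0.16 (adjusted p = 0.0454), and by -0.31 ± 0.15 without replicate 4 (adjusted p = 0.193), and its call held in 2 of the 10 fits. Ifitm2 changed by -0.17 ± 0.05 (adjusted p = 0.0398) and by -0.19 ± 0.06 without replicate 4 (adjusted p = 0.0330), and its call held in 4 of the 10 fits. Without replicate 4, Dtx3l, the ubiquitin ligase partner of Parp9, was called higher at 0.46 ± 0.14 (adjusted p = 0.0307). Parp9 and Dtx3l overlap on opposite strands and the strand setting of the counting is unknown, so their reads may be mixed. Irf7 was at 3.77, 1.28, 2.69, 2.89 and 2.75 CPM with 393P and was not called (log2 change -0.95 ± 0.36, adjusted p = 0.0739, and -0.31 ± 0.27 without replicate 4, adjusted p = 0.498).

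The second membrane comparison asked the same of 344SQ cells. There 7 of the 32 genes were called lower and 2 higher, where 7.44% and 7.43% of all genes were called lower and higher. Without CAFs alone replicate 4 these counts were 3 and 2 (6.13% and 6.20% of all genes). The median log2 change was -0.25 with all replicates and -0.01 without replicate 4, against 0.0064 and 0.0067 for all genes. This comparison shares its CAFs-alone sums with the previous one, so the changes in both are not independent. The genes that were lower with and without replicate 4 were Ifit1, Ifit3 and Samhd1.

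Samhd1 was at 157, 151, 157, 150 and 161 CPM with 344SQ, all below the 5 CAFs-alone sums. Its log2 change was -0.27 ± 0.06 (adjusted p = 0.00215), -0.27 ± 0.06 without replicate 4, and it was called in all 10 fits with 1 sum left out. Ifit3 (ENSMUSG00000074896.3, chromosome 19, 34583531 to 34588731), another member of the IFIT family, was at 8.80, 6.42, 9.38, 6.78 and 8.92 CPM with 344SQ and at 15.5, 11.9, 9.69, 23.8 and 11.9 in CAFs alone. The groups of Ifit3 did not overlap, and its log2 change was -0.86 ± 0.20 (adjusted p = 0.00432) and -0.60 ± 0.16 without replicate 4 (adjusted p = 0.0139). Ifit1 was at 1.34, 2.43, 2.71, 3.72 and 2.82 CPM with 344SQ, with a log2 change of -1.72 ± 0.45 (adjusted p = 0.00957) and -1.01 ± 0.33 without replicate 4 (adjusted p = 0.0436). Both IFIT genes were called in all 10 fits with 1 sum left out.

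The third IFIT gene differed. Ifit2 was at 34.0, 38.7, 43.8, 31.3 and 37.8 CPM with 344SQ and at 31.6, 36.6, 31.8, 25.8 and 29.7 in CAFs alone, and it was not called. The remaining lower calls were Ifi35 (-0.56 ± 0.17), Ifi44 (-1.68 ± 0.52), Xaf1 (-0.97 ± 0.30) and Irgm1, a GTPase of autophagy and vacuole defence (-0.44 ± 0.14). None of these 4 kept its call without replicate 4, where their log2 changes were -0.41 ± 0.16, -0.44 ± 0.21, -0.35 ± 0.13 and -0.22 ± 0.09 (adjusted p = 0.101, 0.176, 0.0762 and 0.134). Ifi35 was at 5.55, 6.77, 4.79, 7.21 and 6.10 CPM with 344SQ and at 9.69, 6.99, 7.09, 12.5 and 8.61 in CAFs alone. Irgm1 was at 23.9, 23.4, 23.1, 21.6 and 26.0 CPM with 344SQ and at 26.7, 29.1, 25.6, 50.1 and 28.3 in CAFs alone, so its groups overlapped only at their edges.

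Higher with 344SQ were Irf1 and Parp14, an ADP-ribosyltransferase of the interferon response, but with all replicates both calls were lost without a filter on low counts, with DESeq2 (adjusted p = 0.0940 and 0.0572), with only the groups compared and after thinning. Irf1 (ENSMUSG00000018899.16, chromosome 11, 53770014 to 53778374) was at 11.9, 9.37, 9.38, 9.40 and 9.62 CPM with 344SQ and at 8.05, 7.40, 7.68, 7.01 and 7.74 in CAFs alone. The groups of Irf1 did not overlap, but its log2 change of 0.39 ± 0.13 had an adjusted p of 0.0460 and kept its call in 1 of the 10 fits with 1 sum left out, where the adjusted p reached 0.153. Parp14 was at 5.55, 5.90, 7.09, 6.56 and 5.87 CPM with 344SQ and at 3.13, 2.88, 3.31, 6.01 and 4.74 in CAFs alone. Its log2 change was 0.61 ± 0.20 (adjusted p = 0.0434), and 0.80 ± 0.20 without replicate 4 (adjusted p = 0.00855), but leaving out 1 sum ended the call in 7 of 10 fits. Without replicate 4 the guanylate-binding protein gene Gbp7 was also called higher (1.24 ± 0.31, adjusted p = 0.00891), at 1.64 to 3.13 CPM with 344SQ against 0.873 to 1.34 in the other CAFs-alone sums and 4.88 in replicate 4. Irf7 was at 4.21, 3.12, 2.92, 2.19 and 5.63 CPM with 344SQ and was not called (log2 change -0.54 ± 0.36, adjusted p = 0.349, and 0.09 ± 0.27 without replicate 4, adjusted p = 0.872).

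**Figure D3:**
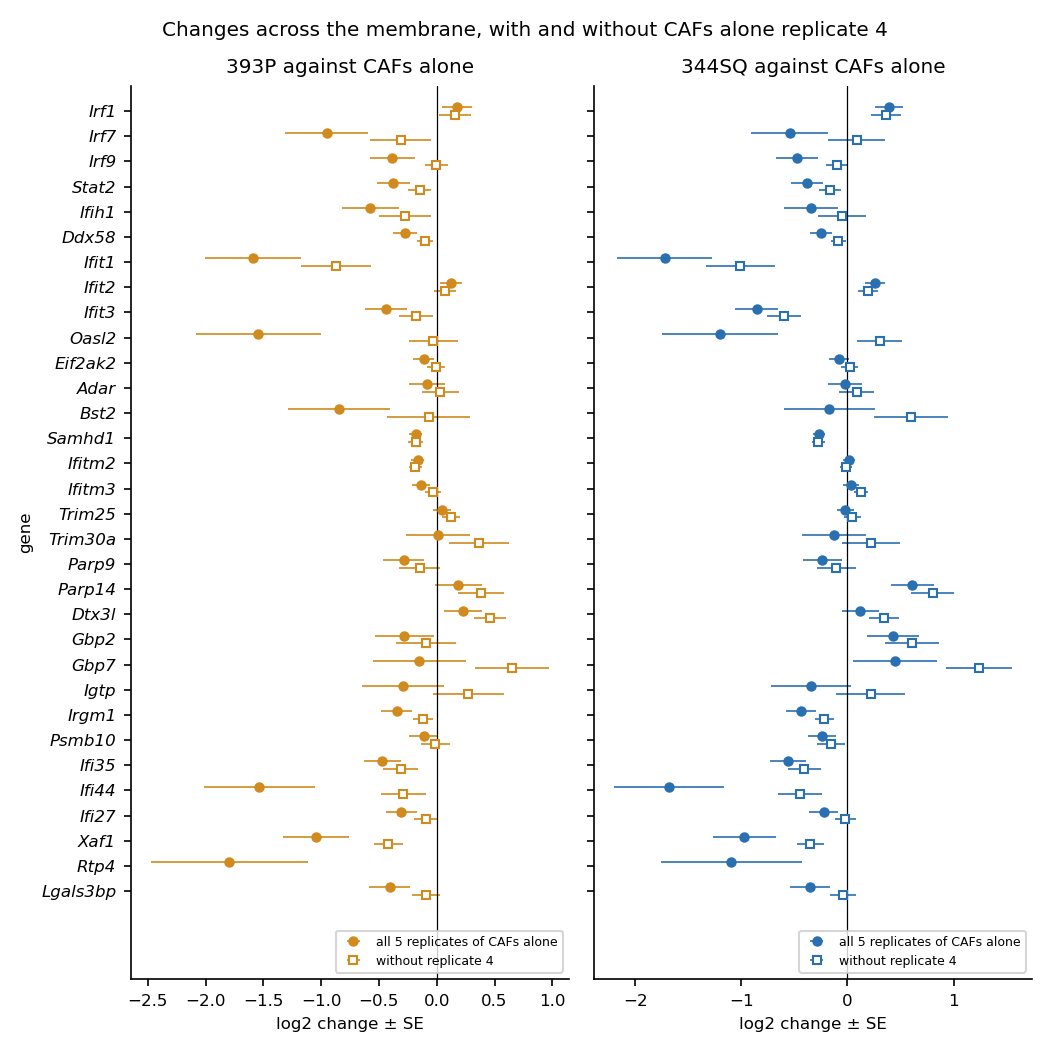
Log2 change ± SE against Boyden CAFs alone for each gene that passed the count filter, with 393P on the left and 344SQ on the right. Filled circles use all 5 CAFs-alone replicates and open squares leave out replicate 4, which moves Oasl2, Ifi44, Xaf1 and Irf7 towards 0 while Samhd1 stays in place.

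Members of the other roles gave few calls. The RNA sensors Ddx58 (RIG-I) and Ifih1 (MDA5) were not called with either line, with log2 changes of -0.27 ± 0.10 and -0.57 ± 0.25 with 393P and -0.25 ± 0.11 and -0.34 ± 0.25 with 344SQ. Without replicate 4 the changes of Ddx58 and Ifih1 were -0.11 ± 0.07 and -0.28 ± 0.22 with 393P and -0.09 ± 0.07 and -0.05 ± 0.23 with 344SQ. Among the double-stranded RNA effectors, Eif2ak2 (the kinase PKR) and the RNA-editing enzyme Adar had changes between -0.11 and -0.02 and were not called. Oasl2 had the widest shift between fits: -1.54 ± 0.54 with 393P (adjusted p = 0.0519) and -0.03 ± 0.21 without replicate 4 (adjusted p = 0.953), and -1.20 ± 0.55 with 344SQ (adjusted p = 0.148) and 0.30 ± 0.21 without it (adjusted p = 0.398). Irf9 went from -0.38 ± 0.19 to near 0 (SE 0.10, adjusted p = 0.989) with 393P and from -0.48 ± 0.20 to -0.10 ± 0.10 with 344SQ. Psmb10, the subunit of the immunoproteasome that passed the filter, had log2 changes of -0.11 ± 0.12 and -0.24 ± 0.13, and of -0.01 ± 0.12 and -0.15 ± 0.13 without replicate 4, and was not called.

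Between the cancer cell lines across the membrane, edgeR called 0 of the 32 genes (3.88% of all genes were called), with 4 genes at an unadjusted p under 0.05, and DESeq2 called 1. That gene was Ifitm2, at 228, 238, 224, 227 and 234 CPM with 344SQ and at 202, 189, 200, 209 and 218 with 393P. The groups did not overlap, and edgeR gave a log2 difference of 0.18 ± 0.06 (adjusted p = 0.0705). Ifitm2 and Ifitm3 are close paralogs, so some of their reads may be assigned to the other.

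In the aggregates, where CAFs touched the cancer cells, 1 of the 15 genes tested was called with 393P, lower, and 0 higher (5.27% and 5.41% of all genes). That gene was Samhd1, at 8.44, 11.9 and 14.6 CPM with 393P and at 23.3, 30.4 and 30.3 in CAFs alone. The groups did not overlap, and the log2 change was -1.25 ± 0.33 (adjusted p = 0.0112). The call was lost without CAFs alone replicate 3 (-1.19 ± 0.38, adjusted p = 0.0569) or 393P replicate 1 (-1.08 ± 0.36, adjusted p = 0.0596), and DESeq2 gave an adjusted p of 0.0868. The counts behind these values were 9 to 29 per library. The carcinoma markers summed to 11.1 to 17.6 CPM in CAFs alone and to 24.5 to 105.9 CPM with 393P, and their part in the Samhd1 levels was not tested. The median log2 change of the 15 genes was -0.46, against -0.0023 for all genes.

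With 344SQ in aggregates edgeR called 0 of the 15 genes (5.84% of all genes were called), with 2 at an unadjusted p under 0.05, and DESeq2 also called 0. Samhd1 was at 14.4, 17.0 and 14.0 CPM, all below the 3 CAFs-alone libraries, with a log2 change of -0.88 ± 0.33 (adjusted p = 0.128). Irf1 was at 7.20, 1.21 and 2.80 CPM with 344SQ and at 12.1, 13.2 and 10.5 in CAFs alone. The groups of Irf1 did not overlap, and its log2 change was -1.60 ± 0.59 (adjusted p = 0.117). A single count was worth 1.06, 1.05 and 0.917 CPM in the 344SQ libraries before TMM scaling, so these Irf1 levels rest on few counts. Between 344SQ and 393P aggregates edgeR and DESeq2 both called 0 of the 15 genes (4.15% of all genes were called by edgeR), with 1 at an unadjusted p under 0.05.

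**Figure D4:**
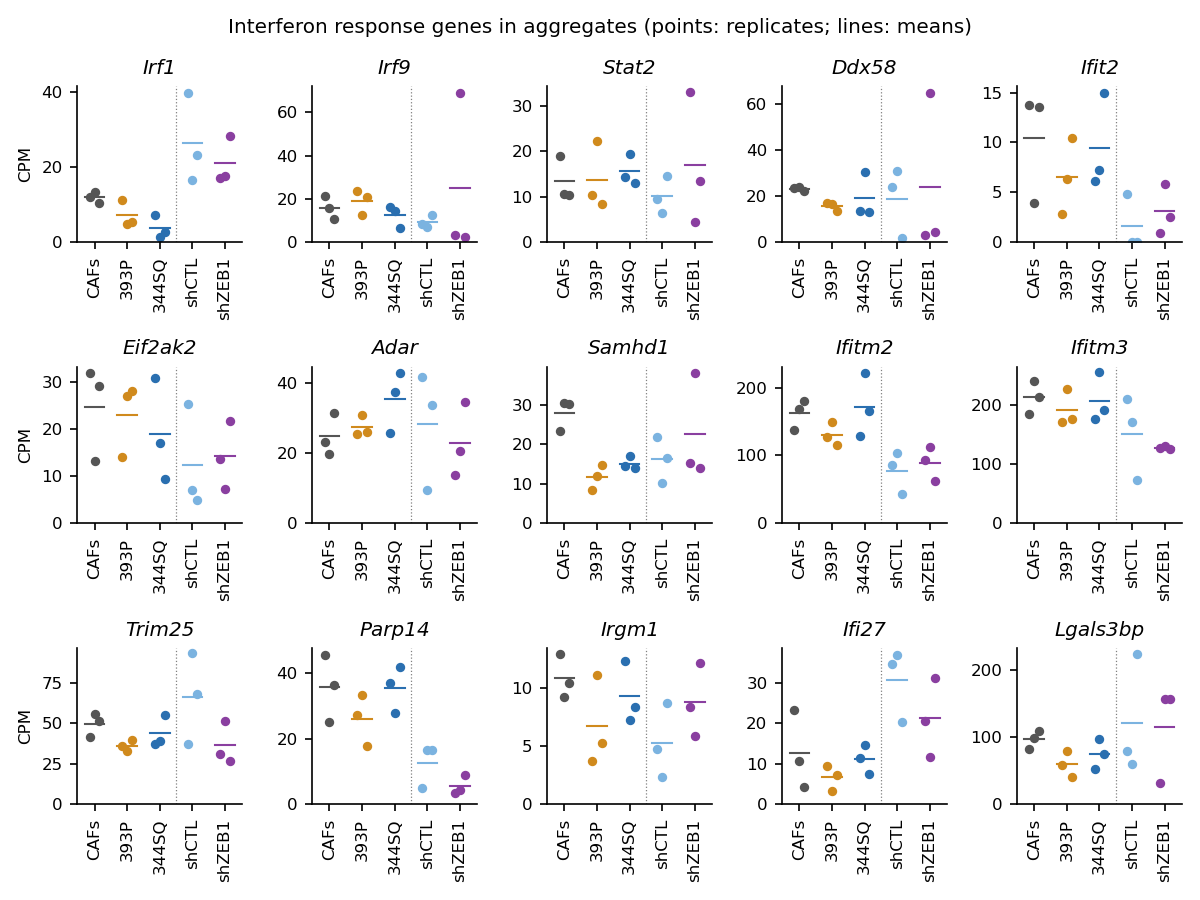
CPM of the 15 genes that passed the count filter in the aggregate table, in each replicate (points) with group means (lines). The dotted line separates the aggregate table from the shRNA table, which was normalised on its own, and Samhd1 is lower with 393P and with 344SQ than in CAFs alone in every replicate.

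The shRNA aggregates asked whether Zeb1 in 344SQ cells affected the CAFs. edgeR called 0 of the 14 genes tested and 0.00% of all genes, with 0 of the 14 and 466 of all genes at an unadjusted p under 0.05, and DESeq2 called 0 of the members. Single libraries dominated the levels. Irf9 was at 3.07, 69.0 and 2.56 CPM with shZEB1 and at 8.20, 7.09 and 12.6 with shCTL, and the RNA sensor gene Ddx58 was at 3.07, 64.6 and 4.48 against 23.9, 30.7 and 1.93. In shZEB1 replicate 2, where both were high, the carcinoma markers summed to 1310 CPM, against 146 and 616 in the other shZEB1 libraries. In shCTL replicate 3, where Ddx58 was lowest, they summed to 1779 CPM against 157 and 122. Whether tumour cells had a part in the levels was not tested. The chemokine gene Cxcl10, which attracts T cells, passed the filter in no table, and its highest level anywhere was 10.9 CPM (17 counts), in shZEB1 replicate 3.

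The effects of the cancer cells in contact and across the membrane were compared in 1 fit of both tables. For 393P the effect on Samhd1 was lower in the aggregates than across the membrane, by -0.99 ± 0.26 on the log2 scale (adjusted p = 0.00886), where 8.98% of all genes differed. For 344SQ the effect on Irf1 was lower in the aggregates, by -1.97 ± 0.48 (adjusted p = 0.00770), where 4.73% differed. Irf1 had 68 counts in all aggregate libraries together, so its aggregate effect rests on few counts. Among the genes that passed the filter in both tables these were the only calls for the 44. The Samhd1 difference was not called without aggregate 393P replicate 1 (-0.81 ± 0.28, adjusted p = 0.0805), and the Irf1 difference was not called without aggregate 344SQ replicate 2 (-1.61 ± 0.49, adjusted p = 0.0529) or replicate 3 (-1.77 ± 0.53, adjusted p = 0.0521). The format cannot be told apart from the depth and preparation of its table.

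The rest of the pathway was read from lists with 93 genes. No ligand passed the filter: of 10 interferon genes listed, Ifnb1, Ifna1, Ifna2, Ifna4, Ifna5, Ifnl2 and Ifnl3 had no count in any library or sum, and Ifne, Ifnk and Ifng had 1 or 2 counts in the few where they were seen. None of these 10 genes had a count in a CAFs-alone library or sum, replicate 4 of the Boyden chamber included.

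All 6 receptor genes listed passed the filter in the Boyden table, 5 in the aggregate table and 4 in the shRNA table. Across the membrane, 3 of the 6 rose with 344SQ (7.43% of all genes) and 1 fell with 393P (7.96% of all genes). Ifnar2, a chain of the type I receptor, was at 69.4, 65.8, 67.5, 69.5 and 67.8 CPM with 344SQ, at 37.7, 37.4, 33.0, 35.3 and 39.1 with 393P, and at 31.7, 38.9, 35.2, 38.8 and 43.2 in CAFs alone. The 344SQ sums lay far above both other groups, with a log2 change of 0.85 ± 0.08 against CAFs alone (adjusted p = 5.14e-09). Il10rb, the shared chain of the interferon lambda and IL-10 receptors, rose by 0.61 ± 0.10 (adjusted p = 0.000104), and Ifnar1, the other type I chain, by 0.31 ± 0.07 (adjusted p = 0.00337). Ifngr2, a chain of the interferon gamma receptor, fell by 0.22 on the log2 scale with 393P (SE 0.07, adjusted p = 0.0245), a call that 3 of 10 fits with 1 sum left out did not make.

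Among the JAK-STAT genes, Jak2, a kinase of the interferon gamma receptor and of many cytokine receptors, rose with both lines. It was at 114, 126, 118, 117 and 131 CPM in CAFs alone, at 159, 185, 165, 163 and 172 with 393P and at 208, 211, 209, 217 and 191 with 344SQ, so that no group overlapped another. The log2 changes of Jak2 were 0.48 ± 0.06 (adjusted p = 5.29e-06) and 0.77 ± 0.06 (adjusted p = 4.80e-10), and the lines differed by 0.30 ± 0.06 (adjusted p = 0.00252). Of the sensing genes, Ikbke, a kinase that activates Irf3 and Irf7, was at 32.3, 28.5, 27.3, 23.8 and 35.4 CPM with 344SQ and at 21.6, 14.1, 14.2, 20.3 and 19.2 in CAFs alone (0.72 ± 0.13, adjusted p = 0.000286). The adaptor gene Myd88 fell with 393P by 0.42 on the log2 scale (SE 0.12, adjusted p = 0.0167).

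Of 53 other interferon-induced genes listed, 33 were tested in the Boyden table, where 4 rose and 3 fell with 344SQ (7.43% and 7.44% of all genes) and 2 rose and 4 fell with 393P (7.68% and 7.96% of all genes), counts near those shares. Ifi204, a p200 family gene of DNA sensing, was at 45.0, 40.6, 37.9, 44.1 and 44.9 CPM with 393P, 40.3, 41.3, 42.9, 49.8 and 43.9 with 344SQ, and 26.8, 31.8, 27.6, 40.1 and 30.9 in CAFs alone, with its highest CAFs-alone level in replicate 4. Ifi204 rose by 0.43 ± 0.09 with 393P (adjusted p = 0.00233) and 0.47 ± 0.10 with 344SQ (adjusted p = 0.00120). Its neighbour Ifi203 was at 46.3 CPM in replicate 4 and at 22.8 to 25.5 in the other CAFs-alone sums. With all replicates Ifi203 was called with 344SQ (0.48, adjusted p = 0.0263) and not with 393P (0.37, adjusted p = 0.0754). Without replicate 4 it rose by 0.62 ± 0.09 with 393P (adjusted p = 6.12e-05) and 0.72 ± 0.09 with 344SQ (adjusted p = 4.48e-06). The p200 genes are close paralogs whose reads may be split by the counting. Shisa5, a p53 and interferon target in the endoplasmic reticulum, fell with both lines, by 0.34 and 0.39 on the log2 scale (SE 0.09 each, adjusted p = 0.00795 and 0.00234).

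**Figure D5:**
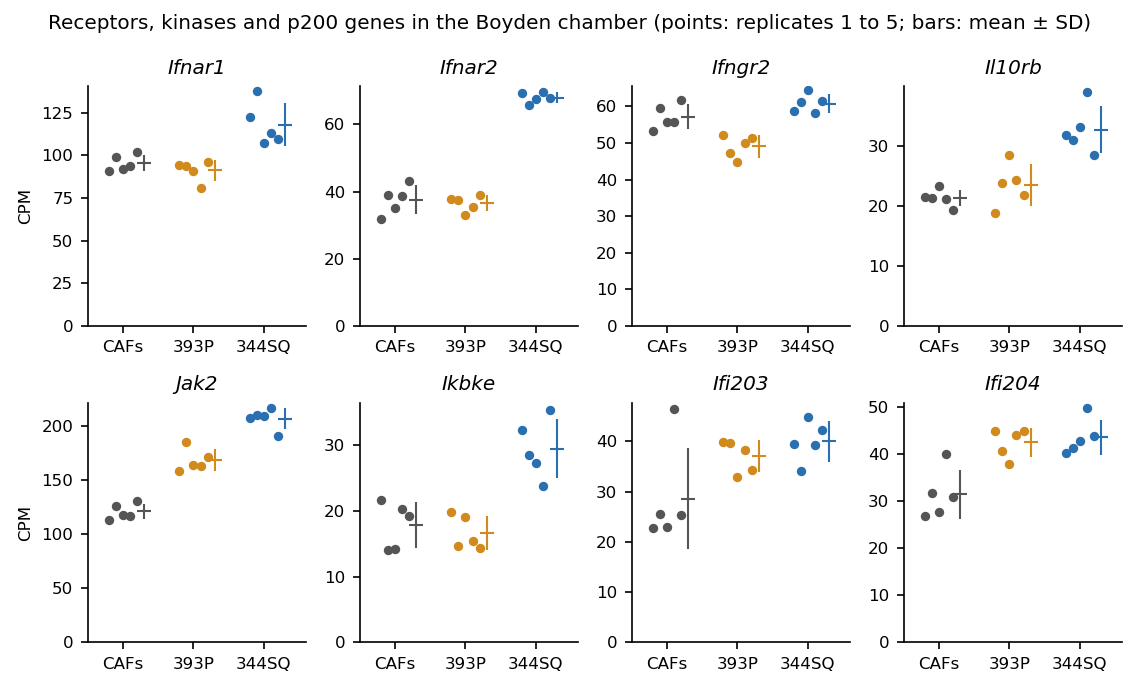
CPM of 8 pathway genes in the 15 Boyden sums (points, replicates 1 to 5 from left to right) with mean ± SD (n = 5). Every 344SQ value of Ifnar2 and Ikbke lies above both other groups, Jak2 is higher with both lines, and Ifi203 and Ifi204 show the raised CAFs-alone replicate 4.

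Of the 93 genes, 59 were tested in the Boyden table. With 344SQ 9 rose and 3 fell (7.43% and 7.44% of all genes), and 9 and 1 without CAFs alone replicate 4. With 393P, 3 rose and 7 fell (7.68% and 7.96% of all genes), and 3 and 3 without that sample. Between the lines, where 3.88% of all genes were called, 7 were higher with 344SQ and 0 lower, including 4 receptor genes. In aggregates with 393P, 34 of the 93 were tested, of which 2 rose and 1 fell (5.41% and 5.27% of all genes), counts near those shares. Ifi204 rose from 19.8, 42.3 and 32.4 CPM in CAFs alone to 130, 159 and 114 with 393P (2.14 ± 0.23, adjusted p = 6.41e-08), and was at 40.1, 47.3 and 40.1 CPM with 344SQ, which differed from 393P by -1.67 ± 0.22 (adjusted p = 6.82e-06). Beside this, the macrophage and myeloid markers summed to 7.25 to 28.2 CPM with 393P and 26.4 to 35.2 in CAFs alone, the carcinoma markers to 24.5 to 105.9 and 11.1 to 17.6, and the fibroblast markers to 7278 to 8664 and 3980 to 6714. The part of these cell types in the Ifi204 levels was not tested. Ifi203 rose by 1.14 ± 0.26 (adjusted p = 0.00236), at 44.1, 69.8 and 72.1 CPM with 393P against 22.4, 30.4 and 32.4 in CAFs alone. Ifnar2 fell with 393P, at 6.57, 7.14 and 9.40 CPM against 22.4, 19.8 and 19.9 (-1.43 ± 0.37, adjusted p = 0.00928), a call that DESeq2 did not make (adjusted p = 0.0788). A single count was worth 0.906, 0.794 and 1.01 CPM in the 393P libraries before TMM scaling, so these Ifnar2 levels rest on few counts. No gene of the 93 was called with 344SQ in aggregates or between shZEB1 and shCTL by edgeR.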

How the data were processed

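RNA sequencing libraries of sorted CAFs were aligned and counted with STAR and HTSeq on mm10, per the submitters' processing notes. The sources used here do not state the annotation release, strand setting or filters. The authors deposited raw counts per gene, 60 libraries in all, 45 of them Boyden technical libraries that were summed to 15. Gene positions came from GENCODE M21 and promoters from RefSeq GRCm38.p6. Each table was filtered (filterByExpr), scaled by TMM and fitted on its own with edgeR 4.0.16 (quasi-likelihood, 2-sided) in R 4.3.3. Both formats were fitted together for the difference between them. The p-values were adjusted by Benjamini-Hochberg over all genes tested (7992 aggregate, 7801 shRNA, 14040 Boyden) and called at 0.05. CPM of genes used TMM-scaled library sizes, and marker sums used library totals. The labels do not say whether equal replicate numbers mark paired samples, and the main fits did not pair them.

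Alternatives were no filter, another scaling (RLE), removal of ribosomal and mitochondrial genes, a replicate block, DESeq2 1.42.0, fitting only the groups compared, technical library 1 alone, thinning to the smallest total and leaving out each sample. The scripts were tested on simulated data. The 44 genes, the gene lists and the markers were chosen with earlier results of these data known. The rule for named genes was every called gene of the 44, values in every sample for up to 4 of them a comparison (smallest p, at most 1 a role until each role with a call has one), always Irf7, Isg15, Ifit1 and Cxcl10 where they passed the filter, and up to 3 called genes per pathway list. Oasl2, Ifi44, Irf9, Stat2, Oas2, Ifit2, Ifi203 and the genes that stood apart in 1 sample were also named after their values were seen.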

Additional observations from a re-analysis of the deposited data

Results flagged for a closer look

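In Boyden groups of 5 sums, a value was marked where its gap to the nearest other value, divided by the group's range, was above 0.71. Chance marks about 1 in 20 groups where values are independent and normally distributed. Low CPM values and genes that vary together need not keep that rate. The share of all genes that this rule marks was not tested, so the number marked cannot be compared with chance. Of 111 gene and group pairs, 24 were marked. CAFs alone replicate 4 held 19 of them, all high. Its transcription factors and sensor were Irf7 at 12.5 CPM, Irf9 at 50.5 and Ddx58 at 98.2. Its RNA effectors were Ifit1 at 21.5 CPM, Oas2 at 9.01, Oasl2 at 50.8 and Eif2ak2 at 75.6. Its antiviral and ISG15 system genes were Mx2 at 2.88 CPM, Bst2 at 7.39, Isg15 at 2.50, Usp18 at 1.88 and Trim30a at 4.38. Its GTPase genes were Gbp3 at 2.25 CPM, Gbp7 at 4.88, Igtp at 5.51 and Irgm1 at 50.1. Ifi44 at 39.6 CPM, Xaf1 at 55.5 and Rtp4 at 12.4 completed the set.

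The other 5 marked values were spread over 4 sums: Cxcl10 at 1.19 CPM in CAFs alone replicate 1, Irf1 at 11.9 in 344SQ replicate 1, Ifitm3 at 741 and Trim25 at 89.0 in 393P replicate 5, and Psmb10 at 12.3 in 393P replicate 3.

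The joint edgeR fit compared the effect of a cancer cell line between aggregates and the Boyden chamber. It tested 32 of the interferon response genes and 60 of the pathway list genes. With 393P, 1 of the 32 was called lower, and 4 of the 60 higher and 1 lower, where 8.98% of all genes were called. With 344SQ, 1 of the 32 was called lower, and 2 of the 60 higher and 2 lower, where 4.73% of all genes were called. Each value below is the aggregate effect minus the Boyden effect in log2. Of the called genes, 7 had passed the filter in both tables. With 393P these were Samhd1 at -0.99 ± 0.26 (adjusted p = 0.00886), Ifnar2 at -1.34 ± 0.31 (0.00235), Ifngr2 at 0.83 ± 0.24 (0.0189), Ifi204 at 1.81 ± 0.23 (1.04e-07) and Shisa5 at 0.82 ± 0.18 (0.00137). With 344SQ they were Irf1 at -1.97 ± 0.48 (0.00770), Ifnar2 at -1.16 ± 0.27 (0.00440), the receptor gene Tlr4 at 1.12 ± 0.34 (0.0435) and Shisa5 at 0.85 ± 0.18 (0.00169). The Tlr4 value was called in 6 of 16 fits with 1 sample left out, and Ifngr2 in 12 of 16.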

How the results depend on the processing

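No value of a called gene reversed under the alternatives run. For most counts of the 44 genes below, the share of all genes called under that setting is not given. Such counts cannot be compared with a background. Without a filter, genes of the 44 that the main fit left out were tested as well. Among the 44 genes, the aggregate 393P comparison had 2 lower calls with the replicate block and 0 with DESeq2. Boyden 393P had 16 lower without a filter, 3 with the block and 0 from technical library 1. Boyden 344SQ had 0 higher without a filter, with the block, with DESeq2, with only the groups compared, from technical library 1 and after thinning. Its lower calls were 15 without a filter, 4 with the block, 3 with only the groups compared and 1 from technical library 1. DESeq2 called 1 gene higher with 344SQ than 393P. Over all genes, shZEB1 against shCTL had 90 calls without a filter, 1 with the block and 26 with DESeq2, and technical library 1 alone gave 609, 500 and 73 for Boyden 393P, 344SQ and their difference.

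With CAFs alone replicate 4 left out, a combination chosen after seeing the data, 393P had 1 higher under DESeq2, RLE, the block and removal of ribosomal and mitochondrial genes. Its lower calls were 3 under DESeq2, RLE and that removal and 0 with the block. For 344SQ the lower calls were 3 under the same 3 settings and 2 with the block, and all genes under the block came to 1053 and 1283. Leaving out each sample gave 0 to 2 lower in aggregate 393P (625 to 770 of all genes), 284 to 421 of all genes in aggregate 344SQ and 244 to 314 between the lines. For Boyden 393P it gave 0 to 1 higher, 2 to 11 lower and 1581 to 2289 of all genes, and for Boyden 344SQ 0 to 2 higher, 3 to 8 lower and 1581 to 2774. Between the lines it gave 0 of the 44 and 378 to 759 of all genes. For the difference between formats it gave 0 to 1 lower and 1106 to 1380 of all genes with 393P, and 0 to 2 lower and 565 to 797 with 344SQ. Samples with the same number correlated at -0.35 to 0.31 in the Boyden table, with 2 of 15 pairs over 0.1. Those with different numbers correlated there at -0.41 to 0.46. In the aggregates these ranges were -0.03 to 0.07 and -0.08 to 0.08. In the shRNA table they were -0.03 to 0.12 and -0.15 to 0.08. Correlations of this kind cannot show how the cultures were set up, so whether equal numbers mark pairs is unknown. The cause of the shifts in the counts of calls was not tested. In the aggregates, with totals of 757717 to 1258751 counts, 29 of the 44 genes did not pass the filter. Ribosomal and mitochondrial counts made up 40.5% to 49.2% of those libraries and 11.2% to 15.3% of the Boyden sums. The part of depth or of these counts in this was not tested.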
